A study of Mus musculus with 12 samples.

Results

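Interferon-stimulated genes are the genes that a cell switches on when an interferon binds its receptor, and 44 of them were followed here in neonatal mouse cardiac fibroblasts carrying *Sox17* and *Erg*. The 44 members were given by symbol, by a rule that uses no measured value but was drawn up with earlier results of these data known, and each was matched through its Ensembl ID to a row of a bulk RNAseq count table of 35727 genes. All 44 were found, and all 44 also passed the filter on low counts that left 15506 genes for testing. The table holds 12 libraries in 6 groups of 2, namely control and *Sox17*-*Erg* cultures at Day 3, Day 7 and 4 weeks after infection.

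The cells came from pooled hearts of newborn mice, selected for the fibroblast surface protein THY1, and the source mice named are C57BL/6J or a *Tcf21*-CreERT2 line with a tdTomato reporter, without a statement of which line gave these libraries. Control cells are labelled fibroblast, and their column names carry the name of the pMX retroviral backbone. The sources used here do not state what the control virus held. *Sox17*-*Erg* cells are labelled iEC, for induced endothelial cell, and received retrovirus for both transcription factors. All 6 groups were kept in the endothelial growth medium EGM2, and no sort of converted cells before RNA extraction is stated, so each library is a culture and not a pure cell type. Nothing says that the 2 replicates of a group came from separate fibroblast isolations, so the p-values measure the spread between these samples, which may be technical.

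Interferons alpha and beta, the type I interferons, bind a receptor of IFNAR1 and IFNAR2. The kinases JAK1 and TYK2 then phosphorylate STAT proteins, among them STAT2, which joins IRF9 in a complex called ISGF3. ISGF3 binds a short element, the interferon-stimulated response element (ISRE), in the promoters of its target genes. Interferon gamma acts through IFNGR1 and IFNGR2 and leads to binding at a different element called GAS. The products of the target genes sense viral RNA, block viral replication or feed back on the pathway. Fibroblasts and endothelial cells both hold this pathway.

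Promoters of the members are shown here because the ISRE is what many of these genes are known to share, and it was no part of how they were chosen. RefSeq promoter windows of GRCm38.p6, from 250 bases before to 50 bases after a start, were at hand for 33 of the 44 members, in 38 windows. The ISRE letters searched were GAAA, any 2 bases and GAAA again, on either strand, and they stood in 18 member windows (47.4%) and in 3.44% of the 32851 windows of all genes. The GAS letters, TTC and GAA with any 3 bases between them, which read the same on both strands, stood in 10 member windows (26.3%) and in 8.3% of all windows. A match is a run of letters and does not show that a factor binds. The stretches that follow lie upstream of the RefSeq start, read 5′ to 3′ on the strand of the gene, and carry the ISRE letters in capitals. They were taken from members of each kind, those lower in *Sox17*-*Erg* cells at Day 7 or 4 weeks (*Ifit1*, *Oas1a*, *Stat2*, *Bst2*, *Gbp2*, *Gbp3* and *Rsad2*) and those that did not pass that test (*Isg15*, *Ifit3*, *Ifit3b* and *Irgm1*).
Ifit1: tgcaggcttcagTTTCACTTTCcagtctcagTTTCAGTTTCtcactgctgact
Oas1a: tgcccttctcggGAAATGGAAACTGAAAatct
Stat2: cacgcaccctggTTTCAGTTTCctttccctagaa
Bst2: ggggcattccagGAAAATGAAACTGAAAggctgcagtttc
Gbp2: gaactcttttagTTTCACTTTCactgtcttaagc
Gbp3: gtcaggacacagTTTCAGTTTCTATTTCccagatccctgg
Rsad2: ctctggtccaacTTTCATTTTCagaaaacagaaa
Isg15: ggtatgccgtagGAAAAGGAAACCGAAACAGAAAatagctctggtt
Ifit3: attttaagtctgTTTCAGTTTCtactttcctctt
Ifit3b: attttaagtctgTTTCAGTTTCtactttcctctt
Irgm1: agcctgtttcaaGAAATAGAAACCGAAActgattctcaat

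The *Isg15* stretch, at chr4:156200863-156200908 on the minus strand, held 3 overlapping matches in a row. The *Gbp2* stretch, at chr3:142620592-142620625 on the plus strand, and the *Stat2* stretch, at chr10:128270264-128270297 on the plus strand, held 1 match each. The stretches of *Ifit3*, at chr19:34583395-34583428, and *Ifit3b*, at chr19:34607791-34607824, were the same letter for letter. Across members with a window, the ISRE letters stood in 11 of the 22 that were called lower at Day 7 or 4 weeks and in 7 of the 11 that were not. In GRCm38 coordinates of the GENCODE M21 annotation, the genes that carry most of what follows are *Gbp2* (ENSMUSG00000028270) at chr3:142620602-142638008 on the plus strand, its neighbor *Gbp3* (ENSMUSG00000028268) at chr3:142560026-142573209 on the plus strand, *Samhd1* (ENSMUSG00000027639) at chr2:157097533-157135265 on the minus strand and *Irf9* (ENSMUSG00000002325) at chr14:55603571-55610030 on the plus strand. GENCODE M21 places the starts of *Gbp2*, *Gbp3* and *Irgm1* further upstream than RefSeq does. Their stretches therefore lie partly, and for *Irgm1* wholly, within the GENCODE genes.

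Libraries held 19011635 to 41240449 counts, and the 10 highest genes took 7.58% to 13.0% of a library. The factors matched the labels in every library. *Sox17* lay between 432 and 1040 CPM in the 6 *Sox17*-*Erg* libraries and at or below 0.416 CPM in the controls, and *Erg* between 17.1 and 65.2 CPM against at most 2.27 CPM. CPM here is the count scaled to a common library size with TMM factors. Of 10 fibroblast markers, 1, 3 and 4 were called lower at Day 3, Day 7 and 4 weeks and 0, 1 and 1 higher, with *Dcn*, *Lum* and *Pdgfra* lower and *Postn* higher at the later times, and of 9 tested endothelial markers, 4, 5 and 7 were called higher at Day 3, Day 7 and 4 weeks. The tenth on that list, *Cldn5*, a tight junction gene of endothelium, stayed at or below 0.462 CPM in all 12 libraries. In whole cultures, fewer cells of a type and less RNA per cell cannot be told apart.

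**Figure D1:**
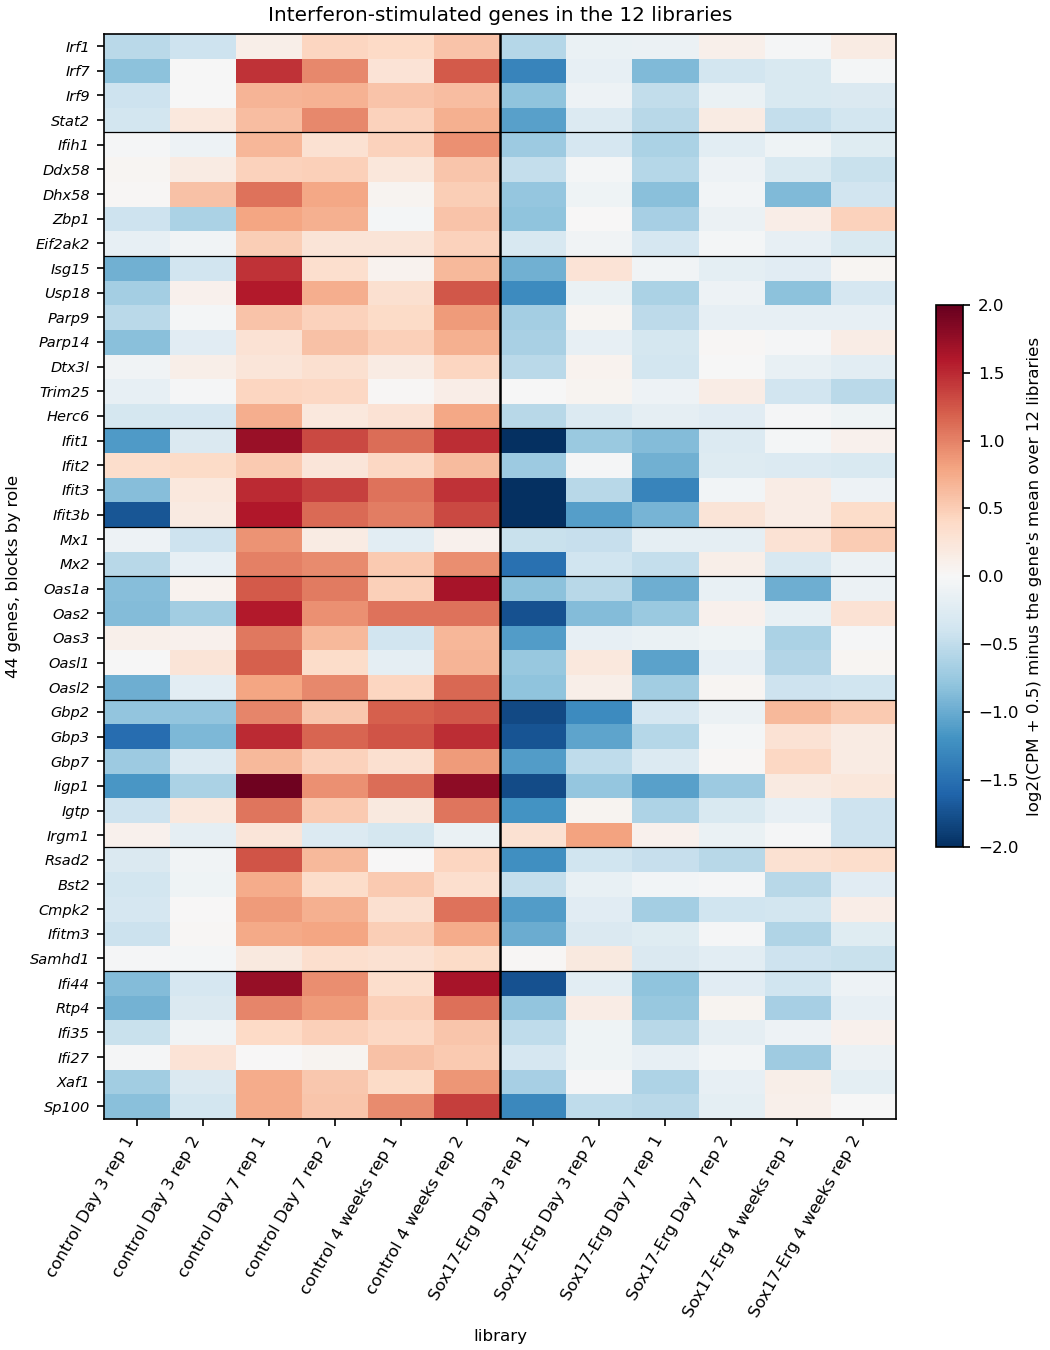
Heat map of the 44 interferon-stimulated genes (rows, in blocks by role) in the 12 libraries (columns, controls left of the line and *Sox17*-*Erg* right of it), colored by log2(CPM + 0.5) minus the gene's mean over the 12 libraries. The 4 control libraries of Day 7 and 4 weeks are red over most rows, and the first Day 3 library of *Sox17*-*Erg* holds the darkest blue.

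The 44 genes summed to 1125 and 1412 CPM in the Day 3 controls, 2377 and 2196 CPM in those of Day 7 and 1990 and 2424 CPM in the 4-week ones. The sums in *Sox17*-*Erg* libraries were 904 and 1337 CPM on Day 3, 1125 and 1383 CPM on Day 7, then 1172 and 1256 CPM at the last time point. The 2 groups overlapped at Day 3 and not at Day 7 or 4 weeks, and every *Sox17*-*Erg* library lay within or below the range of the Day 3 controls. Per kilobase of exon, *Ifitm3*, which blocks virus entry at endosomes, was the highest member in Day 7 controls at 853 CPM per kb, followed by the virus tether *Bst2* at 150. *Mx1*, a dynamin-like antiviral GTPase, was the lowest at 0.324 CPM per kb, and *Zbp1*, a sensor of Z-form nucleic acid, followed at 0.567.

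At Day 3, few interferon-stimulated genes could be told apart between the groups. *Gbp2*, a guanylate-binding protein that gathers on pathogen-containing vacuoles, was the single member called lower in *Sox17*-*Erg* cells, and 0 members were called higher. The log2 fold changes of *Sox17*-*Erg* over control had a median of -0.32 and ran from -1.20 to 0.62, and 34 of 44 were below 0. The 4 Ifit genes ran from -0.70 to -1.20, with 0 of 4 called. Over all 15506 genes the median was 0.01, with 5.13% called lower and 7.19% called higher. Both *Sox17*-*Erg* libraries lay below both controls for 9 members, against 29.9% of all genes, and above both for 3 members, against 34.1%.

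The *Gbp2* level was 11.0 and 11.0 CPM in the Day 3 controls and 5.21 and 7.80 CPM in the *Sox17*-*Erg* libraries. Its log2 fold change was -0.75 ± 0.21 (SE; edgeR quasi-likelihood test, Benjamini-Hochberg adjusted p = 0.045). The call was lost in 8 of the 12 fits that left out 1 library. The fits that kept a call were those without either Day 7 control or the second Day 7 *Sox17*-*Erg* library, with 1 member each, and the one without the second Day 3 *Sox17*-*Erg* library, with 3 members. It was also lost with a replicate block and when Day 3 was fitted alone, while a block within each time point gave 3 members lower and no filter gave 4 lower and 1 higher. By DESeq2, 1 member was lower and 0 were higher, and at an unadjusted edgeR p under 0.05 the counts were 2 lower and 1 higher.

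The transcription factors of the pathway showed no call at Day 3. *Stat2*, a subunit of ISGF3, had 46.5 and 70.2 CPM in controls and 28.1 and 49.6 CPM in *Sox17*-*Erg* libraries, with a log2 fold change of -0.59 ± 0.32 (adjusted p = 0.25). The ISGF3 subunit *Irf9* had 26.9 and 35.5 against 20.2 and 33.2 CPM (-0.22 ± 0.23, adjusted p = 0.55). *Irf7*, which drives the amplification of type I interferon production, had 10.3 and 18.4 against 7.14 and 16.5 CPM (-0.27 ± 0.46, adjusted p = 0.73). *Irf1*, a factor induced by interferon gamma, had 13.5 and 14.8 against 13.2 and 18.1 CPM (0.15 ± 0.18, adjusted p = 0.63). The groups overlapped for each of the 4 factors. The cytosolic RNA sensors had fold changes of -0.47 ± 0.22 for *Ifih1* (adjusted p = 0.19), -0.35 ± 0.19 for *Ddx58* (adjusted p = 0.26) and -0.77 ± 0.38 for *Dhx58* (adjusted p = 0.21).

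At Day 7, more than 20 interferon-stimulated genes were lower in *Sox17*-*Erg* cells. Of the 44 members, 23 were called lower and 0 higher, while 7.93% of all genes were called lower and 9.48% higher. All 44 fold changes were below 0, with a median of -1.09 on the log2 scale against 0.006 over all genes. Both *Sox17*-*Erg* libraries lay below both controls for 43 members, against 28.8% of all genes, and above both for 0, against 29%. *Irgm1*, an interferon-inducible GTPase of autophagy, was the exception, with 85.4 and 59.9 CPM in controls and 76.9 and 65.8 CPM in *Sox17*-*Erg* libraries. Called lower were all 5 members of the mixed antiviral effector group, 4 of 5 RNA or nucleic acid sensors, 4 of 6 other induced genes, 3 of 6 GTPases of the GBP and IRG families, 2 of 4 transcription factors, 2 of 4 Ifit genes, 2 of 5 Oas genes, 1 of 7 genes of the ISG15 and ubiquitin group, and 0 of 2 Mx genes.

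The Day 7 count rested on few libraries. Without the first Day 7 *Sox17*-*Erg* library 0 members passed, with 21 lower at an unadjusted p under 0.05 and 0 higher. Without the first Day 7 control 5 members were called lower, and without the second 11, and the lone library left in such a group was assumed to vary like the other groups. With the replicate number as a block the count was 35, and with a block within each time point 37. Fitted on the 4 Day 7 libraries alone it was 11, and by DESeq2 it was 34 with 0 higher. At an unadjusted p under 0.05, 41 members were lower and 0 higher in edgeR. The share of all genes at that cutoff, or called by DESeq2 and the other fits, was not counted.

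**Figure D2:**
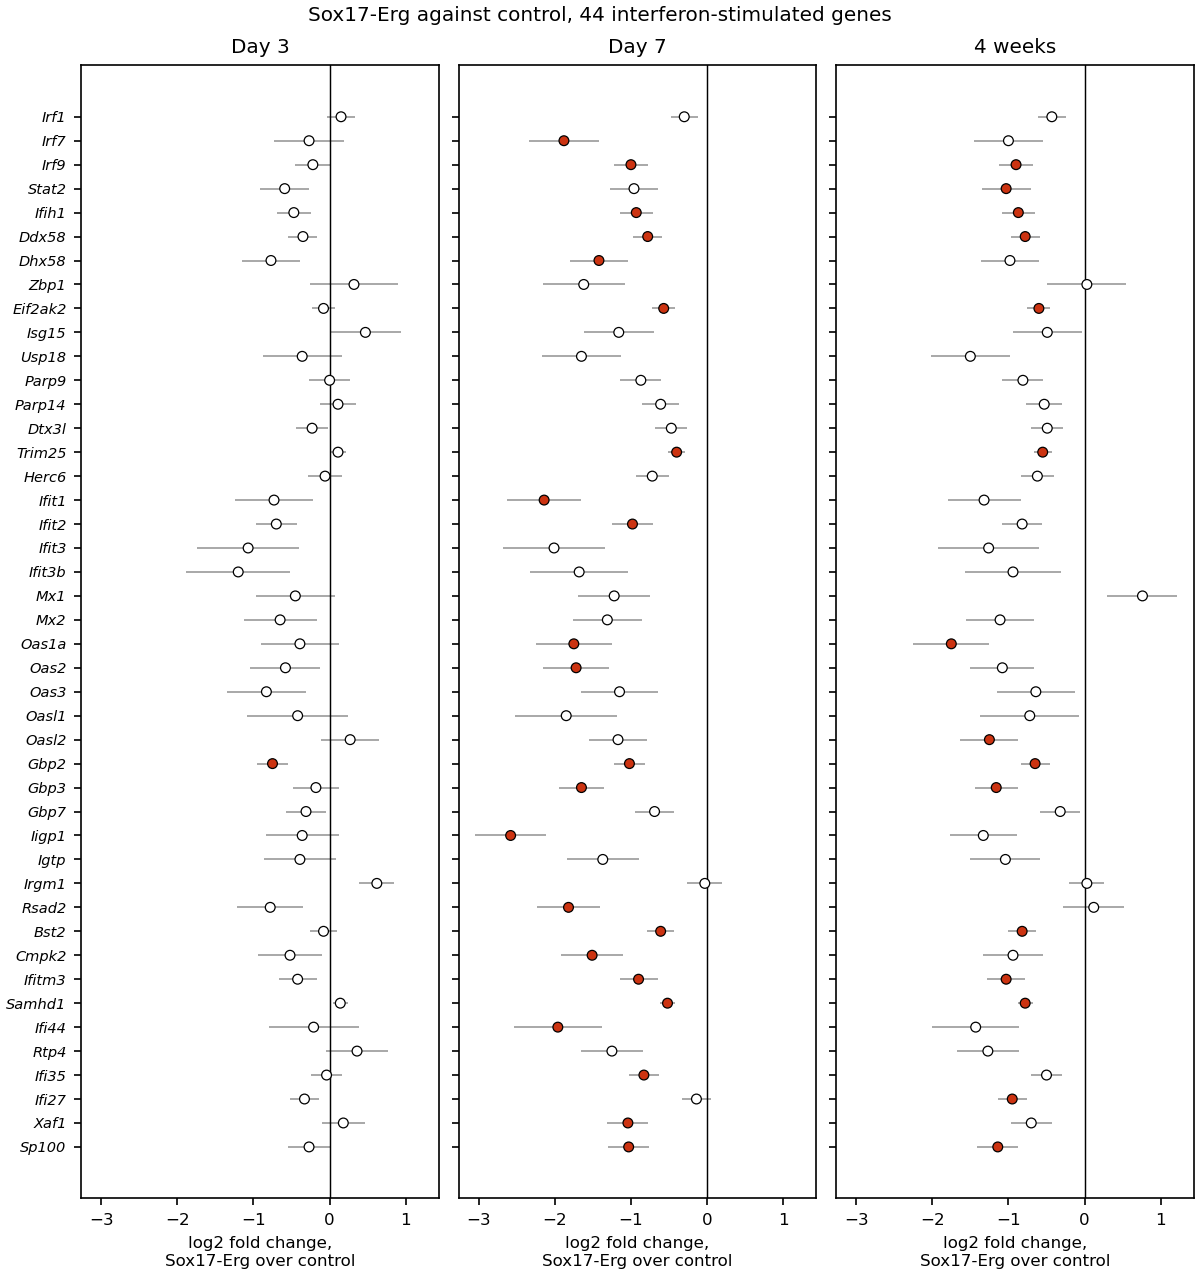
Log2 fold change of *Sox17*-*Erg* over control (horizontal axis) for the 44 genes (rows, in order of role) at each time point, with bars of 1 SE, and filled points for an adjusted p under 0.05. Points straddle 0 at Day 3, all 44 lie below 0 at Day 7, and 40 lie below 0 at 4 weeks.

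*Iigp1*, an immunity-related GTPase that attacks the membrane of parasite vacuoles, had the largest fold at Day 7. Its level was 27.0 and 12.9 CPM in controls and 2.87 and 3.82 CPM in *Sox17*-*Erg* libraries, a 5.99-fold lower level (log2 -2.58 ± 0.47, edgeR adjusted p = 0.0063). *Gbp3* (48.3 and 38.3 against 11.2 and 16.4 CPM) was 3.14-fold lower (-1.65 ± 0.29, adjusted p = 0.0052), the smallest p of the members. *Gbp2* (38.5 and 28.5 against 15.2 and 17.8 CPM) was 2.03-fold lower (-1.02 ± 0.20, adjusted p = 0.0079). The groups were apart for all 3 genes, and the 2 controls differed from each other most for *Iigp1*. Of the same families *Gbp7* (33.8 and 29.5 against 17.6 and 21.7 CPM) and *Igtp* (14.9 and 10 against 4.25 and 5.40 CPM) did not pass, and neither did *Irgm1*.

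Of the Ifit genes, whose proteins bind viral RNA, *Ifit1* fell from 41 and 30.8 CPM in controls to 6.42 and 9.93 CPM in *Sox17*-*Erg* cells, 4.42-fold lower (-2.14 ± 0.49, adjusted p = 0.018). *Oas2*, which makes the 2′-5′ oligoadenylate that activates RNase L, had 12.7 and 7.76 against 2.12 and 4.17 CPM, 3.29-fold lower (-1.72 ± 0.43, adjusted p = 0.025). *Rsad2*, the gene of viperin, had 5.45 and 3.38 against 1.30 and 1.19 CPM, 3.54-fold lower (-1.82 ± 0.41, adjusted p = 0.017). In the Day 3 controls these genes had 5.20 and 9.80 CPM (*Ifit1*), 1.89 and 2.22 CPM (*Oas2*) and 1.53 and 1.85 CPM (*Rsad2*), and the Day 7 *Sox17*-*Erg* means were close to these for *Ifit1*, higher for *Oas2* and lower for *Rsad2*. *Samhd1*, which depletes the nucleotides that reverse transcription needs, changed less in size and with a small error, from 80.3 and 88.3 CPM in controls to 57.6 and 60.3 CPM (-0.52 ± 0.10, adjusted p = 0.0077). *Ifi35*, a partner of the factor NMI, had 24.9 and 26.2 against 12.5 and 16.4 CPM (-0.83 ± 0.20, adjusted p = 0.021).

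Of the ISGF3 subunits among the members, *Irf9* was called at Day 7 and *Stat2* was not. *Irf9* had 57.5 and 58.4 CPM in controls and 25.4 and 32.7 CPM in *Sox17*-*Erg* libraries, 2-fold lower (-1.0 ± 0.22, adjusted p = 0.016), and *Stat2* had 92.8 and 118 against 40.8 and 67.7 CPM (-0.96 ± 0.32, adjusted p = 0.068). *Irf7* had 51.7 and 36.7 against 9.84 and 14.3 CPM, 3.68-fold lower (-1.88 ± 0.46, adjusted p = 0.023). *Irf1* had 21.7 and 26.9 against 18.3 and 21.4 CPM, and its fold change of -0.30 ± 0.18 did not pass (adjusted p = 0.29). The libraries of the 2 groups did not overlap for any of the 4 factors, although the lowest *Irf1* control exceeded the highest *Sox17*-*Erg* library by little.

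All 3 RIG-I-like sensors were called lower at Day 7. *Ifih1*, which encodes MDA5, had 40.0 and 31.2 CPM in controls and 15.9 and 21.6 CPM in *Sox17*-*Erg* libraries (-0.93 ± 0.22, adjusted p = 0.02). *Ddx58*, which encodes RIG-I, had 108 and 109 against 53.0 and 73.4 CPM (-0.78 ± 0.19, adjusted p = 0.024). *Dhx58*, which encodes the regulator LGP2, had 14.4 and 11.5 against 3.45 and 6.28 CPM (-1.42 ± 0.38, adjusted p = 0.032). For each sensor the lower control lay above the higher *Sox17*-*Erg* library. The other members called lower at Day 7 were *Bst2*, *Cmpk2*, *Eif2ak2*, *Ifi44*, *Ifit2*, *Ifitm3*, *Oas1a*, *Sp100*, *Trim25* and *Xaf1*, with log2 fold changes from -0.40 for *Trim25* to -1.96 for *Ifi44*.

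*Isg15* gives its name to many lists of this kind and is described here, as are *Usp18*, *Irgm1*, *Igtp* and the uncalled levels of *Gbp7*, although they were chosen after their values were seen. ISG15 is a ubiquitin-like protein that is joined to other proteins during the interferon response. Its level was 37.6 and 17.2 CPM in Day 7 controls and 12.8 and 11.7 CPM in *Sox17*-*Erg* libraries. The groups were apart, but the spread between the controls was wider than the gap between the groups, and the difference did not pass (adjusted p = 0.12). *Usp18*, the protease that removes ISG15, had 21.7 and 11.7 against 4.27 and 6.37 CPM and did not pass either (adjusted p = 0.057).

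**Figure D3:**
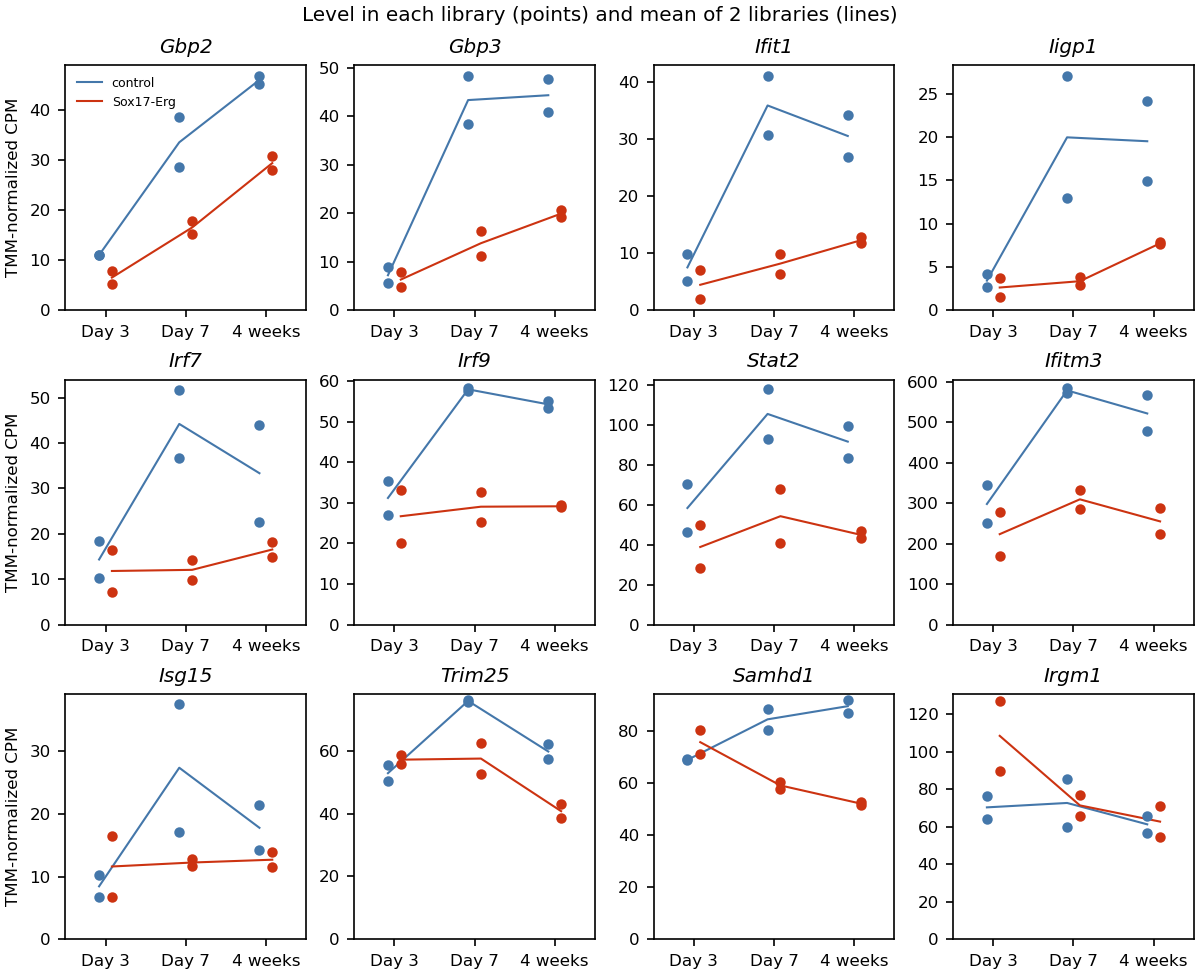
TMM-normalized CPM (vertical axis, from 0) of 12 of the genes at Day 3, Day 7 and 4 weeks, with 1 point per library and lines through the mean of 2 libraries, control in blue and *Sox17*-*Erg* in red. The blue line climbs from Day 3 to Day 7 for most genes. The red line rises as well for some, such as *Gbp2* and *Gbp3*, and falls for *Samhd1* and *Irgm1*. *Irgm1* shows no gap at Day 7 or 4 weeks.

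Leukocyte markers held no call at Day 7, although their sums in the groups were apart. The 10 markers summed to 176 and 197 CPM in controls and 59.3 and 74.6 CPM in *Sox17*-*Erg* libraries, all 8 that could be tested had a negative fold change, with a median of -1.40 on the log2 scale, and 0 of 8 were called by edgeR or had an unadjusted p under 0.05. The macrophage genes *Cd68* (46.0 and 56.8 against 14.4 and 18.8 CPM) and *Csf1r* (26.9 and 26.9 against 12.8 and 12.8 CPM) made up much of the sum, and the T cell gene *Cd3e* stayed at or below 0.364 CPM and the B cell gene *Cd79a* at or below 0.185 CPM in all libraries. Mesothelial markers were lower too, with 5 of 8 called lower at Day 7, and sums of 1110 and 580 CPM against 335 and 242 CPM. Of 10 cardiomyocyte markers, 2 were called lower at Day 7. Mural markers were higher, with 2, 6 and 5 of 10 called at Day 3, Day 7 and 4 weeks and 2 called lower at 4 weeks, and *Notch3*, a receptor of mural cells chosen after its values were seen, had 70.9 and 71.0 CPM in Day 7 controls and 491 and 427 CPM in *Sox17*-*Erg* libraries. The part of these cell types in the interferon-stimulated genes at Day 7 was not tested.

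At 4 weeks, the calls among the genes were again all on the lower side. Of the 44 members, 15 were called lower and 0 higher, while 11% of all genes were called lower and 11.9% higher. Fold changes were below 0 for 40 members, with a median of -0.85 on the log2 scale against -0.014 over all genes. Both *Sox17*-*Erg* libraries lay below both controls for 37 members, against 32.4% of all genes, and above both for 1 member, *Mx1*, against 30.3%. The other members without a clear gap were *Oas3*, *Oasl1*, *Rsad2*, *Gbp7*, *Irgm1* and *Zbp1*. The count of 15 fell to 3 without the first 4-week *Sox17*-*Erg* library, 6 without the second, and 3 without the second 4-week control, and DESeq2 called 22 lower and 0 higher. With the replicate number as a block the count was 24, and with a block within each time point 30. At an unadjusted edgeR p under 0.05, 31 were lower and 0 higher.

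*Samhd1* carried the smallest p at 4 weeks, with 86.8 and 91.9 CPM in controls and 52.5 and 51.5 CPM in *Sox17*-*Erg* libraries, 1.72-fold lower (log2 -0.78 ± 0.10, edgeR adjusted p = 0.00068). *Ifi27*, a mitochondrial protein gene, had 103 and 98.4 against 41.6 and 63.0 CPM (-0.95 ± 0.19, adjusted p = 0.007). These 2 calls held in all 12 fits with 1 library left out. *Trim25*, the ubiquitin ligase that acts on RIG-I, had 57.4 and 62.1 against 43.0 and 38.5 CPM (-0.55 ± 0.12, adjusted p = 0.0086), a call lost in the fit without the second 4-week control.

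The membrane proteins *Bst2* and *Ifitm3* were among the most abundant members at 4 weeks as well. *Bst2* had 131 and 116 CPM in controls and 62.0 and 78.1 CPM in *Sox17*-*Erg* libraries (-0.82 ± 0.18, adjusted p = 0.011), and *Ifitm3* had 477 and 566 against 223 and 287 CPM (-1.03 ± 0.25, adjusted p = 0.017). *Sp100*, a component of PML nuclear bodies, had 78.0 and 106 against 43.0 and 40.1 CPM (-1.14 ± 0.27, adjusted p = 0.015). In all 3 genes the gap between groups was wider than the gap within either group. *Gbp3* had 40.9 and 47.7 against 20.7 and 19.1 CPM (-1.16 ± 0.28, adjusted p = 0.017). *Oas1a* had 10.7 and 24.6 against 3.57 and 6.89 CPM (-1.75 ± 0.50, adjusted p = 0.034), the largest drop among the 15, and its 2 controls differed by more than the gap between the groups.

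*Stat2* and *Irf9* of ISGF3 and 3 of the 5 sensors were called lower at 4 weeks. *Stat2* had 83.6 and 99.5 CPM in controls and 43.2 and 46.7 CPM in *Sox17*-*Erg* libraries (-1.03 ± 0.32, adjusted p = 0.047), and *Irf9* had 53.3 and 55.2 against 28.9 and 29.4 CPM (-0.90 ± 0.22, adjusted p = 0.019). *Ifih1* had 34.7 and 47.4 against 23.6 and 21.2 CPM (-0.87 ± 0.22, adjusted p = 0.019), *Ddx58* 91.8 and 116 against 63.7 and 57.3 CPM (-0.78 ± 0.19, adjusted p = 0.019), and the RNA-activated kinase gene *Eif2ak2* 75.0 and 86.7 against 55.6 and 50.8 CPM (-0.60 ± 0.15, adjusted p = 0.017). The groups were apart for these 5 genes, but the *Stat2* call was lost in 8 and the *Irf9* call in 4 of the 12 fits with 1 library left out. *Irf7*, *Irf1* and *Dhx58* did not pass at 4 weeks. *Irf7* had 22.7 and 44 against 15 and 18.1 CPM (-1.0 ± 0.45, adjusted p = 0.14), *Irf1* had 26.4 and 29.9 against 19.6 and 22.3 CPM (-0.43 ± 0.18, adjusted p = 0.12), and *Dhx58* had 6.82 and 9.39 against 3.29 and 4.89 CPM (-0.98 ± 0.38, adjusted p = 0.095). *Gbp2* and *Oasl2* completed the 15 called lower.

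Across the time points, 12 members were called lower at both Day 7 and 4 weeks, which is 12 of 23 and 12 of 15. The share of all genes called lower at both times was not counted, so this overlap is not set against them. The 12 members were *Bst2*, *Ddx58*, *Eif2ak2*, *Gbp2*, *Gbp3*, *Ifih1*, *Ifitm3*, *Irf9*, *Oas1a*, *Samhd1*, *Sp100* and *Trim25*. A further 11 were called at Day 7 and not at 4 weeks and 3, *Ifi27*, *Oasl2* and *Stat2*, at 4 weeks and not at Day 7. The remaining 18 members were called in no comparison with control.

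At 4 weeks the leukocyte sums of the groups overlapped and the mesothelial sums did not. Leukocyte markers summed to 8.44 and 81.0 CPM in the controls and 13.9 and 75.5 CPM in the *Sox17*-*Erg* libraries, with 0 of 8 called by edgeR or at an unadjusted p under 0.05 and a median log2 fold change of 0.03. The first 4-week control, with 8.44 CPM of leukocyte markers, held 1990 CPM of the interferon-stimulated genes, above both *Sox17*-*Erg* libraries at 1172 and 1256 CPM. Mesothelial markers summed to 1490 and 944 CPM in controls and 268 and 170 CPM in *Sox17*-*Erg* libraries, with 8 of 8 called lower, and 7 of 10 cardiomyocyte markers were called lower. The part of the leukocyte, mesothelial, mural and cardiomyocyte genes in the interferon-stimulated genes was not tested.

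**Figure D4:**
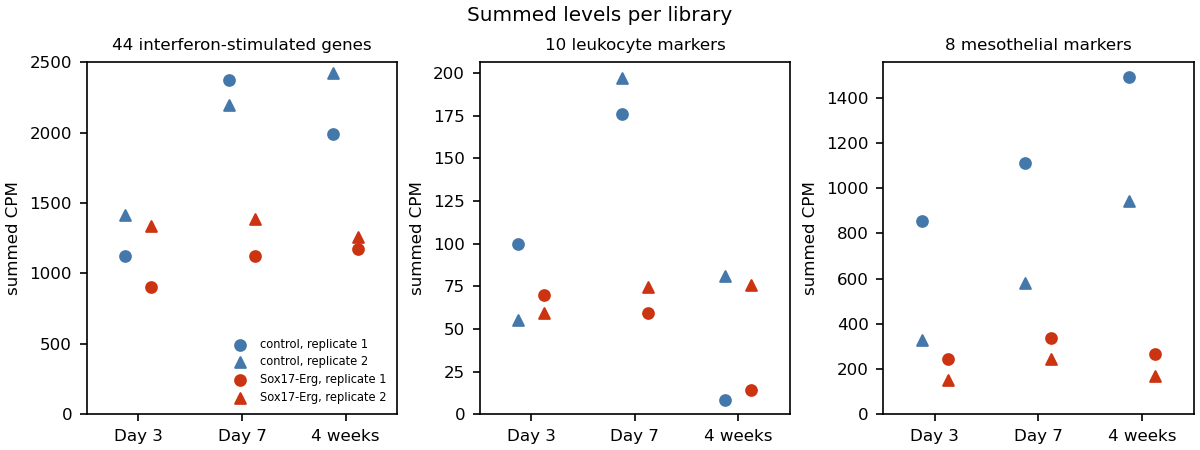
Summed CPM per library (vertical axis, from 0) of the 44 interferon-stimulated genes, 10 leukocyte markers and 8 mesothelial markers at each time point, control in blue, *Sox17*-*Erg* in red, replicate 1 as circles and replicate 2 as triangles. At 4 weeks the leukocyte sums of the 2 groups overlap while the sums of the interferon-stimulated genes and the mesothelial markers do not.

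The gap at the later time points came with a higher level in the controls. From Day 3 to 4 weeks in control, 23 members were called higher and 0 lower, with a median log2 change of 0.96, while 13.9% of all genes were called higher and 12.6% lower and their median was -0.009. Both Day 7 controls already lay above both Day 3 controls for 41 members, against 28.1% of all genes, with *Ifit2*, *Ifi27* and *Irgm1* as exceptions, and 0 members lay below, against 28.6%. The 4-week controls lay above the Day 3 ones for 38 members (34.2% of all genes) and below for 0 (34.5%). Between Day 7 and 4 weeks there was no common direction, with 3 members above (22.8%) and 8 below (20.2%). By DESeq2, 26 members were higher and 0 lower, and at an unadjusted edgeR p under 0.05 32 were higher and 0 lower. The count of 23 was 4 without the first Day 3 control, 12 without the second and 7 without the second 4-week control. Marker sums moved in controls as well, leukocyte markers from 99.8 and 55.0 CPM at Day 3 to 176 and 197 CPM at Day 7 and 8.44 and 81.0 CPM at 4 weeks, and mesothelial markers from 856 and 330 CPM to 1110 and 580 CPM and then 1490 and 944 CPM, and their part in the result was not tested. Time after infection and age of the culture cannot be told apart in this comparison.

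*Gbp3* had the largest change with time in control, 6.18-fold higher at 4 weeks than at Day 3, from 5.57 and 8.83 CPM to 40.9 and 47.7 CPM (log2 2.63 ± 0.30, edgeR adjusted p = 0.00074). *Iigp1* was 5.73-fold higher, from 2.69 and 4.12 CPM to 14.9 and 24.1 CPM (2.52 ± 0.47, adjusted p = 0.0054), and *Gbp2* was 4.18-fold higher, from 11.0 and 11.0 CPM to 45.1 and 46.8 CPM (2.06 ± 0.20, adjusted p = 0.00044). *Gbp7* also rose (1.12 ± 0.26, adjusted p = 0.014), so that 4 of the 6 GTPases of the GBP and IRG families were called higher. Other members called were *Oas2* (2.10 ± 0.44, adjusted p = 0.0091), *Ifit1* (2.03 ± 0.49, adjusted p = 0.017), *Sp100* (1.78 ± 0.28, adjusted p = 0.0024), *Xaf1* (1.15 ± 0.28, adjusted p = 0.016) and *Parp14* (1.11 ± 0.24, adjusted p = 0.011). *Irf1* rose from 13.5 and 14.8 CPM to 26.4 and 29.9 CPM (0.99 ± 0.18, adjusted p = 0.005), and *Herc6*, the ligase that attaches ISG15 in mice, rose by 0.92 ± 0.22 (adjusted p = 0.015). *Samhd1* rose by the least, 0.38 ± 0.10 (adjusted p = 0.021). The calls of *Gbp2*, *Gbp3*, *Sp100* and *Irf1* held in all 12 fits with 1 library left out. The other 11 members called higher changed by 0.48 to 1.80.

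In *Sox17*-*Erg* cells the same interval showed less change in the median, 0.28 on the log2 scale. There, 8 members were called higher and 3 lower, while 15.1% of all genes were called higher and 15.6% lower. Both Day 7 libraries lay above both Day 3 libraries for 11 members (26.6% of all genes) and below for 2 (29.1%), the 4-week libraries lay above those of Day 7 for 13 (24.5%) and below for 3 (23.7%), and they lay above those of Day 3 for 17 (33.5%) and below for 3 (34.6%). *Gbp2* rose from 5.21 and 7.80 CPM to 30.7 and 28.0 CPM, 4.49-fold (2.17 ± 0.21, adjusted p = 0.00038), and *Gbp3* from 4.76 and 7.84 CPM to 20.7 and 19.1 CPM, 3.14-fold (1.65 ± 0.30, adjusted p = 0.0044). *Gbp7* (1.10 ± 0.26, adjusted p = 0.014), *Oas2* (1.60 ± 0.45, adjusted p = 0.027), *Sp100* (0.91 ± 0.27, adjusted p = 0.032) and *Iigp1* (1.55 ± 0.47, adjusted p = 0.034) were also called, so that 6 members rose in both groups. The share of all genes called higher in both groups was not counted. *Rsad2* (1.41 ± 0.43, adjusted p = 0.034) and *Mx1* (1.55 ± 0.50, adjusted p = 0.042) were called in *Sox17*-*Erg* cells and not in control, and *Mx1* stayed at or below 1.65 CPM in all 12 libraries and lost its call in 9 of the 12 fits with 1 library left out. The count of 8 was 2 without the first Day 3 *Sox17*-*Erg* library, 2 without the first 4-week one and 3 without the second.

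The 3 members that fell with time in *Sox17*-*Erg* cells were *Samhd1*, from 71.0 and 80.1 CPM to 52.5 and 51.5 CPM (-0.54 ± 0.10, adjusted p = 0.0047), *Trim25*, from 55.8 and 58.5 CPM to 43.0 and 38.5 CPM (-0.49 ± 0.12, adjusted p = 0.013), and *Irgm1*, from 89.9 and 127 CPM to 71.1 and 54.3 CPM (-0.79 ± 0.23, adjusted p = 0.028). *Samhd1* thus moved in opposite directions in the 2 groups. The count of 3 was 1 without the second Day 3 *Sox17*-*Erg* library and 1 without either 4-week *Sox17*-*Erg* library. The *Samhd1* fall held in all 12 fits, while its rise in control lost the call in 4, those without either Day 3 or either 4-week control.

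A call at one time point and not at another does not show that the effect changed, so the change itself was tested. Between Day 3 and 4 weeks the *Sox17*-*Erg* effect on *Samhd1* differed by -0.92 ± 0.14 on the log2 scale (adjusted p = 0.01), the single member called, against 3.21% of all genes. This call was lost without either Day 3 control. For the same difference DESeq2 called 2 members and edgeR without the filter on low counts 3. A replicate block gave 3 and a block within each time point 4, all of them lower. Between Day 3 and Day 7, 0 members passed (0.0838% of all genes), although 43 of the 44 differences were below 0 with a median of -0.76, and 14 had an unadjusted p under 0.05, all of them lower. DESeq2 called 1 member there, and edgeR without the filter on low counts called 8. Between Day 7 and 4 weeks, 0 members passed in either tool (0.0387% of all genes), with 3 at an unadjusted edgeR p under 0.05.

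The interferon pathway around these genes was read from a list of 48 further genes, of which 37 had enough counts for a test. None of the 10 ligand genes in the list could be tested. *Ifna1*, *Ifna2*, *Ifna4*, *Ifng*, *Ifnl2* and *Ifnl3* had 0 counts in all libraries, and *Ifnb1* reached 4 counts, *Ifna5* and *Ifne* 2 counts and *Ifnk* 1 count in any library. Interferon transcripts were thus not detectable or near the limit at this depth. Of the 37 tested genes, Day 3 had 1 called lower, Day 7 had 8, and 4 weeks had 9, with 0 called higher by edgeR at any of them, while 5.13%, 7.93% and 11% of all genes were called lower. At an unadjusted p under 0.05 there were 10, 16 and 17 genes, of which 1, 1 and 0 were higher, the phosphatase gene *Ptpn11* both times.

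Of the type I receptor chains, *Ifnar2* was called lower and *Ifnar1* was not. *Ifnar2* had 73.2 and 72.6 CPM in Day 7 controls and 44.7 and 52.4 CPM in *Sox17*-*Erg* libraries (-0.59 ± 0.13, edgeR adjusted p = 0.014), and 90.3 and 89.2 against 51.1 and 52.7 CPM at 4 weeks (-0.79 ± 0.13, adjusted p = 0.0025). *Ifnar1* lay between 66.5 and 79.8 CPM in all 12 libraries. The interferon gamma receptor chain *Ifngr1* was lower at 4 weeks, with 158 and 168 against 68.8 and 87.2 CPM (-1.06 ± 0.29, adjusted p = 0.028), while *Ifngr2* lay between 47.9 and 85.1 CPM. *Ifnlr1*, the lambda receptor chain, stayed at or below 1.05 CPM, and *Il10rb*, its partner, lay between 23.9 and 43.0 CPM with no call. *Irf3*, which is switched on by phosphorylation and not by transcription, lay between 47.3 and 60 CPM and was not called at any time point. Both *Sox17*-*Erg* libraries lay below both controls each time, as for 29.9%, 28.8% and 32.4% of all genes at Day 3, Day 7 and 4 weeks. At 4 weeks *Irf3* had 56.9 and 57.3 CPM in controls and 48.1 and 48.0 CPM in *Sox17*-*Erg* libraries.

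Several sensor, adaptor and IRF genes of the list were lower as well. *Ikbke*, a kinase that activates IRF3 and IRF7, had 42.9 and 54.2 CPM in Day 7 controls and 13.2 and 23.0 CPM in *Sox17*-*Erg* libraries (-1.43 ± 0.26, adjusted p = 0.0068), and was lower at 4 weeks (-1.29 ± 0.26, adjusted p = 0.0076). *Irf8*, a factor known from myeloid cells, had 11.3 and 11.4 against 1.71 and 4.31 CPM at Day 7 (-1.93 ± 0.44, adjusted p = 0.018) and 5.41 and 11.4 against 1.52 and 2.11 CPM at 4 weeks (-2.20 ± 0.46, adjusted p = 0.0084). *Irf5* was lower at both times (-1.41 ± 0.36, adjusted p = 0.026, and -1.42 ± 0.36, adjusted p = 0.02). Among the sensor and adaptor genes, *Ifi204* was lower at Day 7 (-1.68 ± 0.42, adjusted p = 0.026) and 4 weeks (-1.80 ± 0.42, adjusted p = 0.015), and *Ifi202b* at 4 weeks (-1.68 ± 0.49, adjusted p = 0.036). The adaptor *Sting1* was lower at Day 7 (-0.70 ± 0.21, adjusted p = 0.049) and 4 weeks (-1.12 ± 0.21, adjusted p = 0.0054). Sequence shared with other genes was looked up for the members only, not for *Ifi204* or *Ifi202b*.

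The Toll-like receptor adaptor *Myd88* was lower at Day 7 (-0.65 ± 0.19, adjusted p = 0.04) and 4 weeks (-0.93 ± 0.19, adjusted p = 0.0069). *Tlr2* was the single gene of the list called at Day 3, with 4.51 and 5.60 CPM in controls and 2.07 and 2.28 CPM in *Sox17*-*Erg* libraries (-1.21 ± 0.32, adjusted p = 0.042), and was called again at Day 7 (-1.22 ± 0.31, adjusted p = 0.027). The feedback inhibitors of the list, among them *Socs1* and *Socs3*, held no call in these comparisons. The *Tlr2* call at Day 3 was lost in 8 of the 12 fits with 1 library left out, the *Sting1* call at Day 7 in 10 and the *Myd88* call at Day 7 in 6. Of the calls in this list, those of *Ifnar2* at 4 weeks and *Ikbke* at Day 7 held in all 12.

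**Figure D5:**
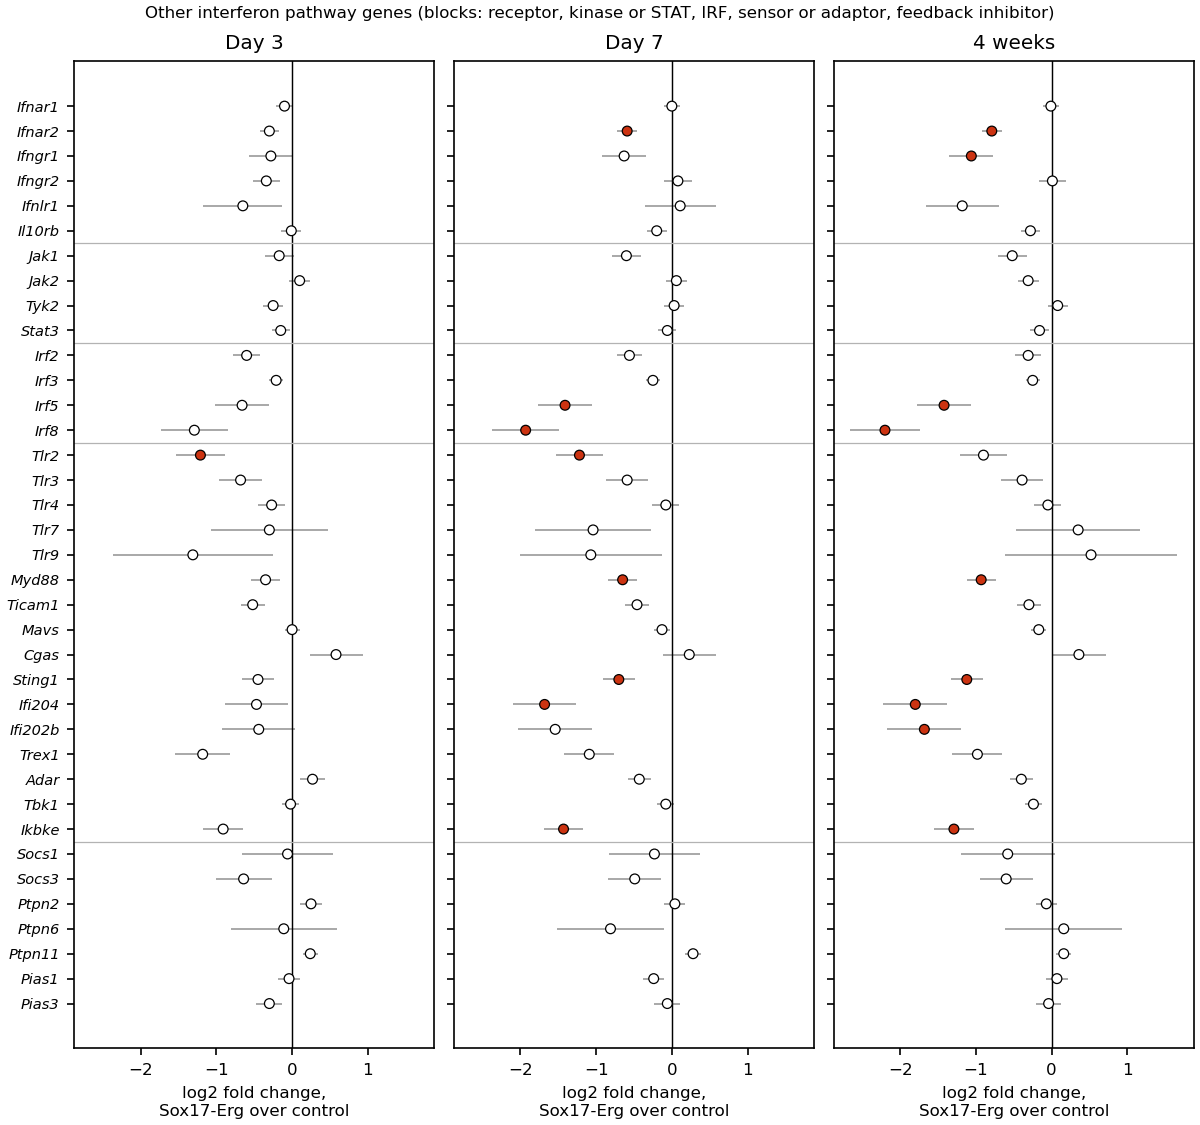
Log2 fold change of *Sox17*-*Erg* over control (horizontal axis) for the 37 tested genes of the interferon pathway list (rows, in blocks by role) at each time point, with bars of 1 SE and filled points for an adjusted p under 0.05. Filled points lie left of 0 at Day 7 and 4 weeks for *Ifnar2*, *Irf5*, *Irf8*, *Myd88*, *Sting1*, *Ifi204* and *Ikbke*.

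Several members share sequence with another gene, so the split of their reads is uncertain. Of the 31-base words in its transcripts, *Oas1a* shared 68.8% with another gene, nearly all with *Oas1g*, *Ifit3* shared 61.8% with *Ifit3b*, and *Ifit3b* shared 55.2%, while *Ifitm3* shared 20.5%, *Igtp* 15.9%, *Gbp7* 14.7%, *Herc6* 13.8%, *Isg15* 12.8%, *Rtp4* 12.5% and *Ifit1* 10.5%. *Irf9* overlaps *Rnf31* on the same strand, as do *Igtp* and *Irgm2* and *Gbp7* and Gm43802. On opposite strands *Parp9* overlaps *Dtx3l*, *Irf7* overlaps *Phrf1*, *Rtp4* overlaps *Masp1* and *Herc6* overlaps Gm19244. *Gbp3* shared 5.64%, *Gbp2* 4.85% and *Samhd1* 2.34%.

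The members moved together within a library as well as between groups. The second replicate exceeded the first for 38 of 44 members in Day 3 controls, 43 in Day 3 *Sox17*-*Erg* cells, 40 in Day 7 *Sox17*-*Erg* cells, 41 in 4-week controls and 27 in 4-week *Sox17*-*Erg* cells, and for 11 in Day 7 controls. Over all genes the share was 47.9% to 51.8%. The median difference between replicates was largest at Day 3 in *Sox17*-*Erg* cells, 0.73 on the log2 scale. The 44 genes are therefore not 44 independent readings of a culture.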

How the data were processed

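Bulk RNAseq was measured in 12 libraries. The authors demultiplexed with bcl2fastq 2.20.0, trimmed with BBDuk and ran Salmon. Its estimated counts for each gene were deposited by the authors, rounded to whole numbers and not scaled for library size. The labels give mm10 as the build, and the Salmon version and annotation are not given in the sources used here. A stranded kit was used, and the strand setting of the counting is not stated.

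Symbols, positions and shared 31-base words came from GENCODE M21 of GRCm38. The model was edgeR 4.0.16 under R 4.3.3, with TMM factors, filterByExpr (minimum count 10, minimum total 15) and 1 mean for every group, which left 6 residual degrees of freedom. All p-values are from its two-sided quasi-likelihood test, adjusted by Benjamini-Hochberg over 15506 genes, and a gene was called at an adjusted p under 0.05. Errors are SE. The test was also run on simulated counts, and that outcome is not reported here.

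Alternatives were DESeq2 1.42.0 (Wald test, and its size factors), no filter, a filter of 50 counts in 2 libraries, fits of single time points, replicate blocks, and leaving out each library. Named were, for each comparison, the called members with the 12 smallest p, *Irf1*, *Irf7*, *Irf9*, *Stat2*, *Ifih1*, *Ddx58* and *Dhx58* in each comparison of *Sox17*-*Erg* with control, and called pathway genes, with ligands, receptors and *Irf3*. Some genes of the pathway list are not reported here. The members and lists were chosen with earlier results of these data known. The heat map uses log2 of CPM with 0.5 added. Exact permutation of 2 against 2 libraries cannot go below p = 0.333 and was not used.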

Additional observations from a re-analysis of the deposited data

Results flagged for a closer look

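The *Sox17*-*Erg* effect on *Samhd1* differed between 4 weeks and Day 3 by -0.92 on the log2 scale (edgeR adjusted p = 0.01), a difference between time points that an interaction term tested. *Samhd1* had 68.9 and 68.6 CPM in Day 3 controls and 71.0 and 80.1 CPM in *Sox17*-*Erg* libraries, and 86.8 and 91.9 against 52.5 and 51.5 CPM at 4 weeks. It was the single member of 44 called in the main edgeR fit, while 3.21% of all genes were called. The call was lost without either Day 3 control. DESeq2 called 2 members for this difference, edgeR without the filter on low counts 3, and the replicate blocks 3 and 4.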

How the results depend on the processing

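Without the filter on low counts, members called were 1 higher and 4 lower at Day 3, 37 lower at Day 7 and 31 lower at 4 weeks, and the difference in effect from Day 3 was called for 8 members at Day 7 and 3 at 4 weeks. Replicate numbers are shared across groups by the labels. Over all genes tested, deviations from the group mean of same-numbered control and *Sox17*-*Erg* libraries correlated by 0.19 at Day 3, 0.30 at Day 7 and 0.17 at 4 weeks. Those of Day 3 and 4 weeks correlated by -0.10 in control and -0.05 in *Sox17*-*Erg*. With 2 libraries a group the deviations mirror each other, so each value rests on 1 independent pair. The study states that control and treated replicates were run in parallel, no source used here ties a number to an isolation, and whether the numbers pair the samples was not settled. With a replicate block, 0, 35 and 24 members were lower at Day 3, Day 7 and 4 weeks and 3 were called for the difference between 4 weeks and Day 3. With a replicate block within each time point these counts were 3, 37, 30 and 4, and 13 members were higher with time in *Sox17*-*Erg*. Fitted alone, Day 3 gave 0 and Day 7 gave 11 lower. DESeq2 called 1 member for the difference between Day 7 and Day 3 and 2 for that between 4 weeks and Day 3. DESeq2 size factors and the stricter filter kept every count within 1.5 times. The cause of these shifts was not tested. Leaving out 1 library gave 0 to 3 lower for Day 3, 0 to 29 for Day 7, 3 to 21 for 4 weeks, 4 to 24 higher with time in control, 2 to 11 higher and 1 to 3 lower with time in *Sox17*-*Erg*, and 0 to 1 for the difference between 4 weeks and Day 3. Uncalled Day 3 values that changed sign ran from -0.11 to 0.32 for *Irf1* (-0.11 without the second *Sox17*-*Erg* library), -1.01 to 0.16 for *Irf7* and -0.63 to 0.05 for *Irf9*. Of 1514 fold changes of named genes under these settings, 1296 kept direction and side of the threshold, 199 lost and 15 gained a call, and 4 turned sign. With 2 libraries a group, levels near 1 CPM such as *Mx1* rest on few counts.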

Other observations

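Within each time point, the *Sox17*-*Erg* library with more *Sox17* had the lower sum of the 44 interferon-stimulated genes. At Day 3 *Sox17* was 781 and 432 CPM while the members summed to 904 and 1337 CPM. At Day 7 the values were 999 and 791 CPM of *Sox17* with 1125 and 1383 CPM of members, and at 4 weeks 1040 and 914 CPM with 1172 and 1256 CPM. In controls, which had at most 0.416 CPM of *Sox17*, the 2 libraries differed as well, with 1125 and 1412 CPM of members at Day 3, 2377 and 2196 CPM at Day 7 and 1990 and 2424 CPM at 4 weeks. The library with more *Sox17* was replicate 1 each time, and replicate 1 was also the lower one in the Day 3 and 4-week controls, so *Sox17* level and replicate number cannot be told apart. These are 3 pairs and no test was made.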
